A study of Homo sapiens with 124 samples.

Results

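Contacts between 8 liver genes and the nuclear lamina were read from single leukaemia cells, which are not of the liver. The genes were ALB, AFP, FGB, APOB, CPS1, SERPINA1, TTR and CYP3A4, and each was taken with 1 Mb on either side. The members are the 100 kb bins of the deposited table that overlap these intervals, a rule that uses position and no measured value. The gene list itself was chosen with earlier results of these data known. This gave 150 of 26426 usable bins, and 10 of the 150 overlap the genes themselves. ALB and AFP lie in adjacent bins and share 20 of the 21 bins of their windows, so the 8 genes stand for 7 separate regions.

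The cells were single haploid cells of clone 14 of KBM7, a near-haploid line from a chronic myeloid leukaemia, and all came from this 1 clone. They carried the bacterial methyltransferase Dam fused to LaminB1, a protein of the nuclear lamina, and received 0.5 nM Shield1, a small molecule that stabilises the fusion, for 15 h. Dam marks GATC motifs that come close to the lamina, the enzyme DpnI cuts the marked motifs, and the fragments are sequenced. Sorting took the smallest 2% of cells that were positive for both Fucci cell cycle markers. All cells form 1 group with no second condition, 118 of the 124 labelled samples were analysed here, and the labels do not say whether they came from separate cultures. No expression was measured, so neither the cell type nor the activity of these genes was checked against RNA.

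The nuclear lamina is a protein mesh under the nuclear envelope. Regions that touch it are known to be mostly poor in genes and to hold genes that are silent or weakly active in that cell type, and genes of other tissues are often found there. Liver cells are known to secrete most proteins of the blood plasma and to carry out the urea cycle and the oxidation of drugs. Of the 8 genes, ALB encodes albumin, the main plasma protein, and AFP encodes alpha-fetoprotein, its relative in the fetus. TTR encodes transthyretin, a carrier of thyroid hormone and of retinol-binding protein. FGB encodes the beta chain of fibrinogen, which forms blood clots, and SERPINA1 encodes alpha-1 antitrypsin, an inhibitor of neutrophil elastase. APOB encodes the structural protein of low-density lipoprotein. CPS1 encodes the mitochondrial enzyme that starts the urea cycle, and CYP3A4 encodes a cytochrome P450 that oxidises many drugs.

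Upstream sequences are shown for the 4 genes whose windows share a short motif, with contact in 7.63 to 60.2% of cells. They are the 250 bases before an annotated start, from RefSeq on GRCh38.p14, and the table holds such windows for 6 of the 8 genes, ALB, AFP, FGB, CPS1, SERPINA1 and CYP3A4. Capitals mark GATC, the motif that Dam methylates, and the hexamer GTTAAT or its reverse complement ATTAAC, which overlaps the consensus of the liver factor HNF1.
ALB, chr4:73404037-73404286, plus strand: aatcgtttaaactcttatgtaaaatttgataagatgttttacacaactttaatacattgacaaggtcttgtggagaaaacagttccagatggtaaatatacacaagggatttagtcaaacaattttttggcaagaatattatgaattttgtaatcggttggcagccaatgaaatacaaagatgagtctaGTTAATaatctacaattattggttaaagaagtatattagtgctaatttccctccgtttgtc
AFP, chr4:73435971-73436220, plus strand: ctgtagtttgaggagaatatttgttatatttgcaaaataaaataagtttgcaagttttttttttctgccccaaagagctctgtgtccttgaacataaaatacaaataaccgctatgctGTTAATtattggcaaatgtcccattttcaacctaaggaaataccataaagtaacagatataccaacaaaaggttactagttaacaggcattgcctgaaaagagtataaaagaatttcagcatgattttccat
FGB, chr4:154562730-154562979, plus strand: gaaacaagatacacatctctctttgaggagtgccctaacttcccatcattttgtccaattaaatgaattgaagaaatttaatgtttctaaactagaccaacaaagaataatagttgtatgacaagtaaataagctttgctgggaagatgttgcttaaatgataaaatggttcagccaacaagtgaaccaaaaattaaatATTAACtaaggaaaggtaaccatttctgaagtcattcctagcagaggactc
SERPINA1, chr14:94388603-94388852, minus strand, the more downstream of 2 listed starts: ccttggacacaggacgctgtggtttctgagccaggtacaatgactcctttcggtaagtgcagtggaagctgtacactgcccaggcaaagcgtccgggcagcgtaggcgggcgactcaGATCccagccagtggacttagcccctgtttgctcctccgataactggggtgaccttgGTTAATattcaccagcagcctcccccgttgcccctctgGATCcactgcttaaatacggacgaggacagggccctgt
The hexamer was present in 5 of 10 upstream windows of the 6 genes, 2 of them overlapping windows of FGB, and in 6.23% of 35116 such windows of all genes, both strands searched. CPS1 and CYP3A4 had none in their windows. GATC was present in 2 of 10 windows of the 6 genes, those being the shown window of SERPINA1 and a second window of FGB, against 35.8% of all windows. Neither comparison with all windows was matched for base composition. Windows with the hexamer held 30.0 to 33.2% G and C at ALB, AFP and FGB, and 58.0% at SERPINA1. A match is a description of letters only. The assay reads GATC motifs, and contact was measured over bins of 100 kb, so these windows have no contact value of their own.

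Contact means a ratio of observed to expected reads of at least 1 for a bin in a given cell, and contact frequency counts such cells as a percentage of all 118. Cells had 28372 to 385661 recovered reads in the usable bins (median 135782), and in the median bin a ratio of 1 stood for 1.17 to 15.9 reads. The contact share of a cell, the percentage of its usable bins in contact, was 33.0% ± 5.47 (SD, n = 118). Every usable bin of the genome was tested with an exact two-sided Poisson-binomial test against the cells' own contact shares, with Benjamini-Hochberg adjustment over all 26426 bins. The test asks whether a bin touched the lamina in more or fewer cells than an average bin of the same cells, with 38.9 cells as the expected number. A bin was called above at 50 or more cells and called below at 28 or fewer cells. The 28 cells with sample numbers 96 to 124, called the second set here, had a higher signal in rarely contacted bins than the 90 cells numbered 1 to 94, called the first set. The mean ratio of a cell over bins at 5% or less had a median of 0.164 in the second set and 0.0309 in the first. Values within each set are therefore given for the gene bins, the windows and the correlations. The labels name no batch, and the split was seen only in the data. Each cell counts as a unit in these p-values.

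The 8 genes did not share a place relative to the lamina. CPS1 was in contact in nearly every cell, ALB, AFP, FGB and APOB in 48.3 to 60.2% of cells, TTR in 25.4% of them, SERPINA1 in few and CYP3A4 in 1 cell. The level of ALB, AFP, FGB and APOB depended on the contact value, with 70.3 to 78.0% at 0.5 and 15.3 to 26.3% at 2. Among the 10 gene bins, 7 were called above, 2 below and 1 neither, where 38.8% of all usable bins were called above, 53.2% below and 8.00% neither. The 7 bins include the 3 bins of CPS1 and the adjacent bins of ALB and AFP, so they are not separate regions. At a contact value of 2 only the 3 bins of CPS1 were called above, where 32.6% of all usable bins were. Of the 150 bins of the windows, 71 were called above and 66 below, or 47.3 and 44.0%. These shares lie within 10 percentage points of the background. The median frequency was 53.8% over the gene bins, in which CPS1 counts with 3 bins, 38.6% over the 150 bins and 17.8% over all usable bins. Of all usable bins, 69.3% had a lower frequency than ALB, 67.3% than AFP, 65.3% than FGB and 63.9% than APOB. For the 3 bins of CPS1 it was 79.3, 99.6 and 99.1%, for TTR 53.6%, for SERPINA1 41.9% and for CYP3A4 22.3%. A call above or below the mean can thus go with a middle rank among all bins. At least 80% of cells were in contact in 39 of the 150 bins, against 15.1% of all usable bins, and at most 5% of cells in 45 of them, against 38.8%.

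**Figure D1:**
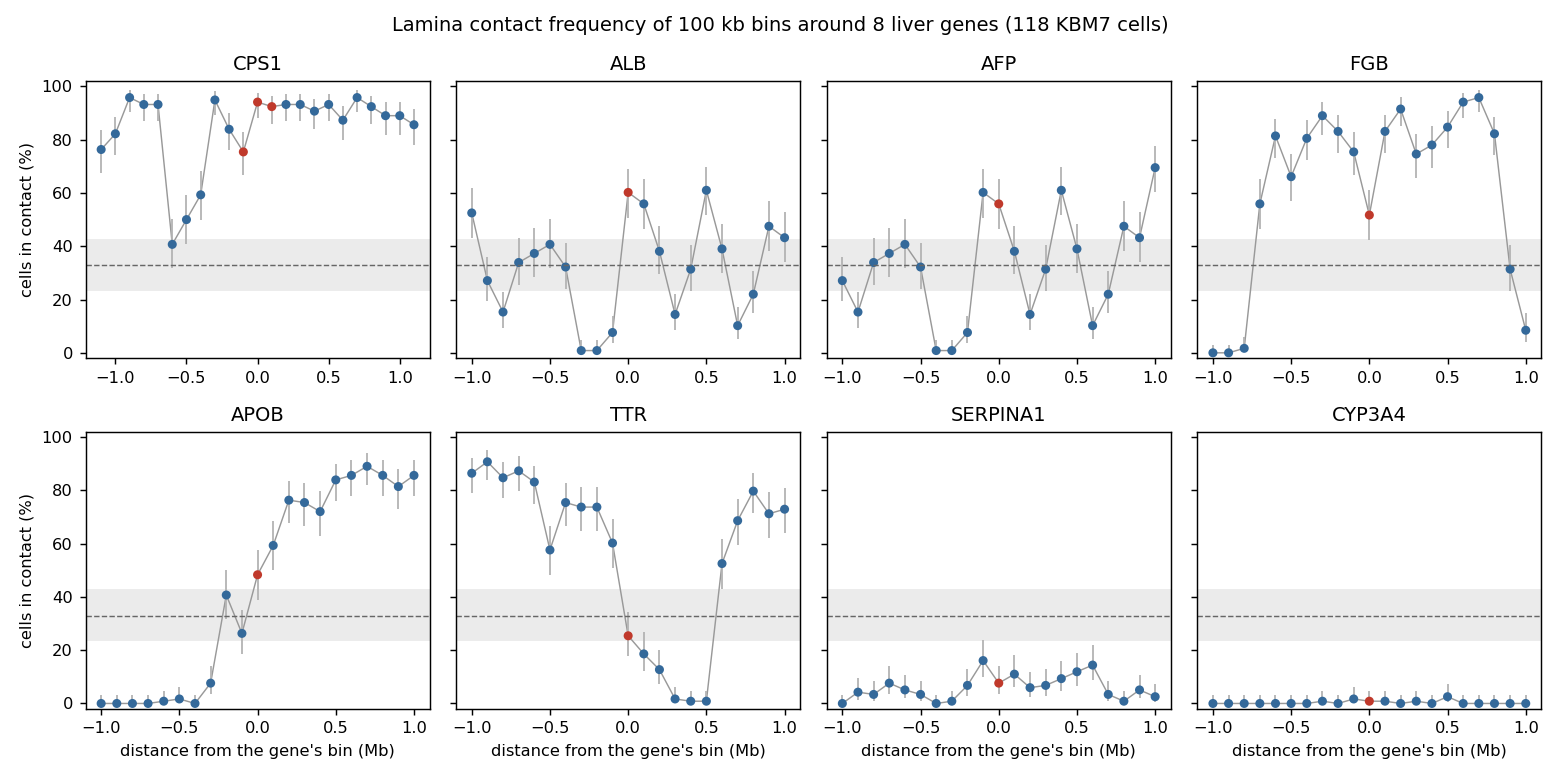
Contact frequency (% of 118 cells, y axis) of each 100 kb bin against its distance from the bin of the gene (Mb, x axis; for CPS1 from the middle one of its 3 bins), with exact 95% intervals as vertical lines. Gene bins are red, the dashed line is the expected 33.0%, and the grey band holds frequencies called neither above nor below. CPS1 lies in a stretch of frequent contact, APOB and TTR lie on slopes, FGB in a local minimum and CYP3A4 in a stretch near 0.

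Among the carriers of the blood plasma, ALB lay at chromosome 4 from 74200001 to 74300000 (hg19) and was in contact in 71 of 118 cells, or 60.2% (exact 95% interval 50.7 to 69.1%). Its ratio ranged from 0 in the lowest cells to 7.03 in cell 7, with a median of 1.31, and 16 cells had no read in the bin. The frequency was above that of an average bin (adjusted p = 2.69e-09, exact Poisson-binomial test). The first set had 62.2% and the second 53.6%, and in the second set alone the call was lost (adjusted p = 0.115, exact test). At a contact value of 2 the frequency was 26.3% against an expected 18.8% and was not called (adjusted p = 0.0642, exact test). Against the contact shares of chromosome 4 alone, which had a mean of 46.2%, ALB was called above (adjusted p = 0.00326, exact test).

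The next bin of chromosome 4, from 74300001 to 74400000, holds AFP and was in contact in 66 cells, or 55.9% (46.5 to 65.1%), with a median ratio of 1.2 and a highest ratio of 7.41. It was likewise called above (adjusted p = 5.2e-07, exact test), with 54.4% in the first set and 60.7% in the second. A contact value of 2 gave 22.9%, which was not called (adjusted p = 0.329, exact test). Against the contact shares of chromosome 4 alone AFP was called above, but near the threshold (adjusted p = 0.0449, exact test). ALB and AFP were both in contact in 52 cells and both out of contact in 33. ALB alone was in contact in 19 cells and AFP alone in 14, so that the share of ALB among the 33 discordant cells was 57.6% (39.2 to 74.5%), and the pair did not differ beyond the counting of cells. The contacts of both bins had a correlation of 0.428 over the 118 cells. For 4423 pairs of neighbouring bins of the genome at 40 to under 80%, the median correlation was 0.529, with quartiles of 0.451 and 0.601. These correlations describe bins of the same libraries and carry no test.

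A sharp boundary lay directly before ALB. The bin to its left was in contact in 9 cells, or 7.63%, and the 2 bins before that in 1 cell each, whereas ALB reached 60.2%. Of the 66 cells in which ALB and its left neighbour differed, 64 had contact at ALB only (97.0%, exact interval 89.5 to 99.6%). This was also the largest step of the window, and the share largely follows from the frequencies on either side. In RefSeq's gene order ANKRD17, an ankyrin repeat gene, is the nearest protein-coding gene on this side of ALB, followed outward by COX18 and ADAMTS3, where left is toward lower coordinates and the order is that of GRCh38.p14. To the right of AFP follow AFM, the gene of the related plasma protein afamin, then RASSF6 and the chemokine gene CXCL8. On that side the frequency varied, with 14.4% at 0.3 Mb from ALB, 61.0% at 0.5 Mb and 10.2% at 0.7 Mb. No bin of the ALB window reached 80%, and the nearest bin that did lay 3 Mb to the left, at 80.5%. Contacts there were short at the contact value of 1. The run of consecutive bins in contact that held ALB had a median length of 0.3 Mb over 71 cells, was longest at 0.8 Mb and consisted of the single ALB bin in 19 cells. It reached farther to the right in 48 cells and farther to the left in none. A bin under a ratio of 1 ends a run, and run lengths, here and below, were not computed at other contact values or read depths.

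TTR, at chromosome 18 from 29100001 to 29200000, was in contact in 30 cells, or 25.4% (17.9 to 34.3%), with a median ratio of 0.401, a highest ratio of 3.80 and no read in 41 cells. It was the 1 gene bin that was called neither above nor below (adjusted p = 0.0993, exact test). Its value depended on the cells used. The first set had 18.9%, which was called below (adjusted p = 0.00913, exact test), and the second had 46.4%, on the upper side of the expected share and not called (adjusted p = 0.403, exact test). Against the contact shares of chromosome 18 alone, which had a mean of 41.4%, it was called below (adjusted p = 0.000414, exact test), as it was at a contact value of 2, with 4.24% (adjusted p = 7.39e-06). At a contact value of 0.5 it was 45.8% and on the upper side (adjusted p = 0.415, exact test).

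The TTR bin lay on a falling slope. The 10 bins to its left were in contact in 77.3% ± 25.9 per cell and the 10 bins to its right in 38.0% ± 20.9 (SD, n = 118), and the left side was higher in 110 of 118 cells. Its left neighbour was at 60.2%, and 44 of the 47 cells that differed between both bins had contact at the neighbour only (93.6%, exact interval 82.5 to 98.7%). RefSeq's gene order places the desmoglein genes DSG2, DSG3, DSG4 and DSG1, which encode adhesion proteins of desmosomes, to the left of TTR. To its right follow B4GALT6, an enzyme of glycosphingolipid synthesis, then SLC25A52 and TRAPPC8. From 0.3 to 0.5 Mb to the right the frequency was 1.69, 0.847 and 0.847%, and in the next bin it was 52.5%. This last step was picked as the largest of the window. All 61 cells that differed across it had contact in the outer bin only (exact interval 94.1 to 100%), which largely follows from the frequencies on either side. In the 30 cells with contact at TTR the run had a median length of 1.7 Mb, up to 5.1 Mb, and in 24 of them it reached farther to the left than to the right.

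**Figure D2:**
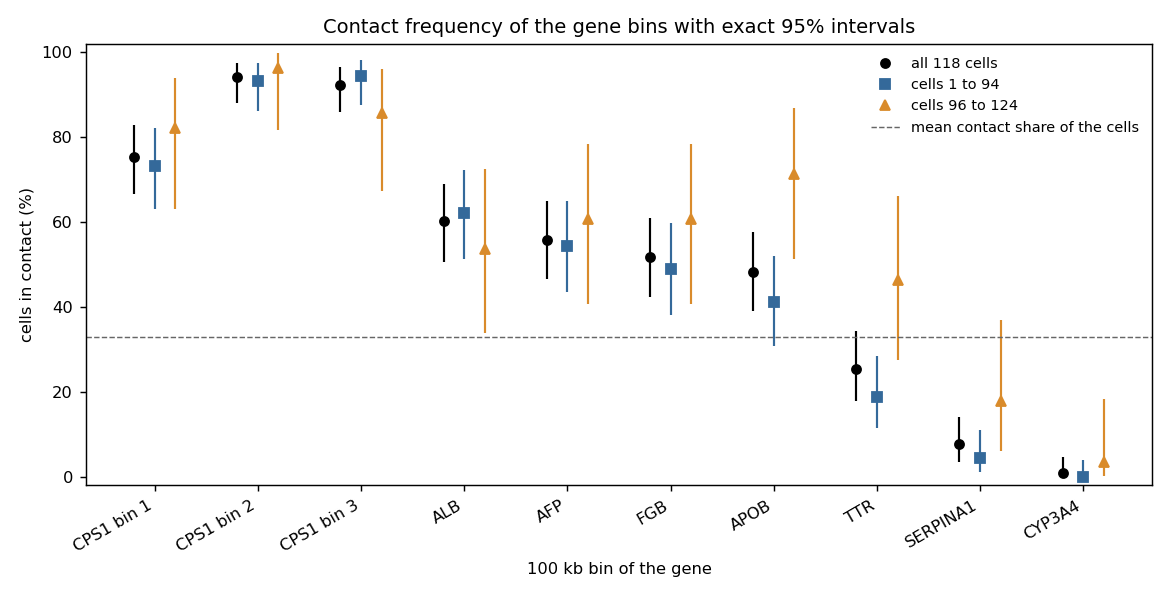
Contact frequency (% of cells, y axis) of the 10 gene bins with exact 95% intervals, over all 118 cells (circles), the 90 cells numbered 1 to 94 (squares) and the 28 cells numbered 96 to 124 (triangles). The dashed line is the expected 33.0%, and the triangles lie farthest above the squares at APOB, with 71.4 against 41.1%, and at TTR, with 46.4 against 18.9%.

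Of the genes of clotting and protease inhibition, FGB lay at chromosome 4 from 155400001 to 155500000 and was in contact in 61 cells, or 51.7% (42.3 to 61.0%). Its ratio had a median of 1.01 and a maximum of 4.45, so that the contact value of 1 falls in the middle of the cells, and 15 cells had no read. It was called above (adjusted p = 4.37e-05, exact test), with 48.9% in the first set and 60.7% in the second. Chromosome 4 as a whole had a mean contact share of 46.2% ± 8.67 (SD, n = 118), and against the shares of this chromosome FGB was not called (adjusted p = 0.279, exact test). At a contact value of 2 it was 17.8%, just under the expected 18.8% (adjusted p = 0.893, exact test).

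FGB was the least frequent of the 16 bins called above in its window. Its left neighbour was at 75.4% and its right neighbour at 83.1%. Of the 41 cells that differed between FGB and the right neighbour, 39 had contact at the neighbour only (95.1%, exact interval 83.5 to 99.4%), and on the left it was 35 of 42 cells (83.3%, 68.6 to 93.0%). RefSeq lists PLRG1, a splicing factor, as the nearest protein-coding gene to the left, and FGA and FGG, which encode the other fibrinogen chains, to the right, followed by LRAT, an enzyme of vitamin A storage. The window went from 0 of 118 cells at its left end to 95.8% at 0.7 Mb to the right of FGB and back to 8.47% at its right end. Its range of 95.8 percentage points was larger than that of 99.9% of 24251 windows of 21 bins in the genome, where the median range was 56.8 points. The first large step, from 1.69% to 55.9%, lay 0.7 Mb before FGB, and all 64 cells that differed across it had contact on the inner side only. It was picked as the largest step of the window, so this count largely follows from the frequencies on either side. Runs that held FGB had a median of 1.4 Mb over 61 cells, and 46 of them spanned at least 1 Mb.

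SERPINA1, at chromosome 14 from 94800001 to 94900000, was in contact in 9 cells, or 7.63% (3.55 to 14.0%). The median ratio was 0, since 65 cells had no read, and the highest was 1.92 in cell 97. It was called below (adjusted p = 1.24e-10, exact test), and all 21 bins of its window were called below too. Contact was seen in 4.44% of the first set and in 17.9% of the second, where the call was lost (adjusted p = 0.0662, exact test). The most frequent bin of the window, at 16.1%, was the one directly to the left of SERPINA1. By RefSeq's order the gene has other serpin genes on both sides, SERPINA6 and SERPINA10 to the left and SERPINA11, SERPINA9 and SERPINA12 to the right. SERPINA6 encodes the corticosteroid carrier of the plasma. Contact in this window was uneven between cells, as 75 cells had none in any of the 21 bins and cells 97 and 119 had 71.4 and 66.7% of it in contact. The nearest bin at 80% or more lay 6.8 Mb away.

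APOB, the lipoprotein gene, lay at chromosome 2 from 21200001 to 21300000 and was in contact in 57 cells, or 48.3% (39.0 to 57.7%), with a median ratio of 0.864, a highest ratio of 3.94 and no read in 21 cells. It was called above (adjusted p = 0.000838, exact test). The first set had 41.1% (30.8 to 52.0%), which was not called (adjusted p = 0.086, exact test), and the second had 71.4% (51.3 to 86.8%). At a contact value of 2 it was 15.3%, under the expected 18.8% and not called (adjusted p = 0.4, exact test).

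The APOB window ran from no contact to frequent contact. Its first 4 bins, from 20200001 to 20600000, were in contact in 0 of 118 cells, which leaves room for 2.54% by the rule of 3 counts and for 3.08% by the exact interval. All 6 bins from 0.5 to 1 Mb to the right of the gene were at 81.4 to 89.0%. Per cell, the 10 bins on the left had 7.71% ± 9.64 in contact and the 10 bins on the right 79.4% ± 28.9 (SD, n = 118). The right side was higher in 112 cells, the left side in none, and the sides were equal in 6. Among protein-coding genes RefSeq places LDAH, a lipid droplet hydrolase, and GDF7, a growth factor of the BMP family, next to APOB on the left, and on the right TDRD15 and then KLHL29. Runs with APOB in contact had a median length of 1.9 Mb over 57 cells, with a median of 1.8 Mb to the right of the gene and 0 Mb to the left, and APOB was the only bin of its run in 11 cells.

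Of the enzyme genes, CPS1 spans 3 bins of chromosome 2 from 211300001 to 211600000, and all 3 were called above. The first bin was in contact in 89 cells, or 75.4% (66.6 to 82.9%), the second in 111, or 94.1% (88.2 to 97.6%), and the third in 109, or 92.4% (86.0 to 96.5%). The first set had 73.3, 93.3 and 94.4% and the second 82.1, 96.4 and 85.7%. Median ratios were 1.65, 2.75 and 2.41, and the highest ratio was 13.1, in cell 69 at the second bin. All 3 bins were in contact together in 85 cells, 1 or 2 of them in 30 and none in 3. The first bin differed from the second in 22 cells, each with contact at the second only (exact interval 84.6 to 100%), while the second bin alone was in contact in 6 cells and the next bin alone in 4, a pair that did not differ beyond counting (60.0%, 26.2 to 87.8%). Adjusted p-values of the exact test were 1.08e-20, 1.41e-42 and 4.23e-40. All 3 calls held at contact values of 0.5 and 2, with reads thinned to 50000 per cell, within both sets of cells and against chromosome 2 alone.

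In the window of CPS1, which has 23 bins, 84.4% ± 15.6 of the bins of a cell touched the lamina (SD, n = 118). Its mean lay above that of 98.6% of 24077 windows of this length. In 114 cells more than 50% of the window was in contact and in 11 cells all of it. Cell 111 was lowest, with 4.35% in contact. Within this stretch the bins from 210800001 to 211100000, to the left of the gene, were lower, at 40.7, 50.0 and 59.3%. Of the 64 cells that differed across the left edge of this dip, 63 had contact outside the dip only (98.4%, exact interval 91.6 to 100%). This edge was picked as the largest step of the window, so the share largely follows from the frequencies on either side. The nearest protein-coding genes to the left in RefSeq's order are LANCL1, MYL1, a myosin light chain of fast muscle, ACADL, an enzyme of fatty acid oxidation, KANSL1L and RPE. To the right follows ERBB4, a receptor tyrosine kinase gene. Runs that held the second CPS1 bin had a median of 2.3 Mb over 111 cells, up to 4.5 Mb.

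CYP3A4, at chromosome 7 from 99300001 to 99400000, was in contact in 1 cell, or 0.847% (0.0215 to 4.63%), which was cell 119 with a ratio of 1.30. No read was present in 99 cells. It was called below (adjusted p = 4.92e-19, exact test), and so were all 21 bins of its window, of which 15 had no contact in any cell. The first set had no contact in 90 cells, which leaves room for 3.33% by the rule of 3 counts and for 4.02% by the exact interval. With each cell thinned to 50000 reads the bin was in contact in 3 of 109 cells, or 2.75%, and was still called below (adjusted p = 4.21e-14, exact test). The whole window held 9 contacts, each in another cell, 2 of them in the first set and 7 in the second. The most frequent bin, at 2.54%, was in contact in 3 cells, all of the second set. In this bin a ratio of 1 stood for a median of only 1.6 reads, no cell had more than 3 reads and 114 cells had none. In RefSeq's order the gene lies among the related genes CYP3A7, CYP3A5 and CYP3A43, with the zinc finger gene ZSCAN25 beyond CYP3A5. A bin at 80% or more was first met 4.5 Mb to the left.

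**Figure D3:**
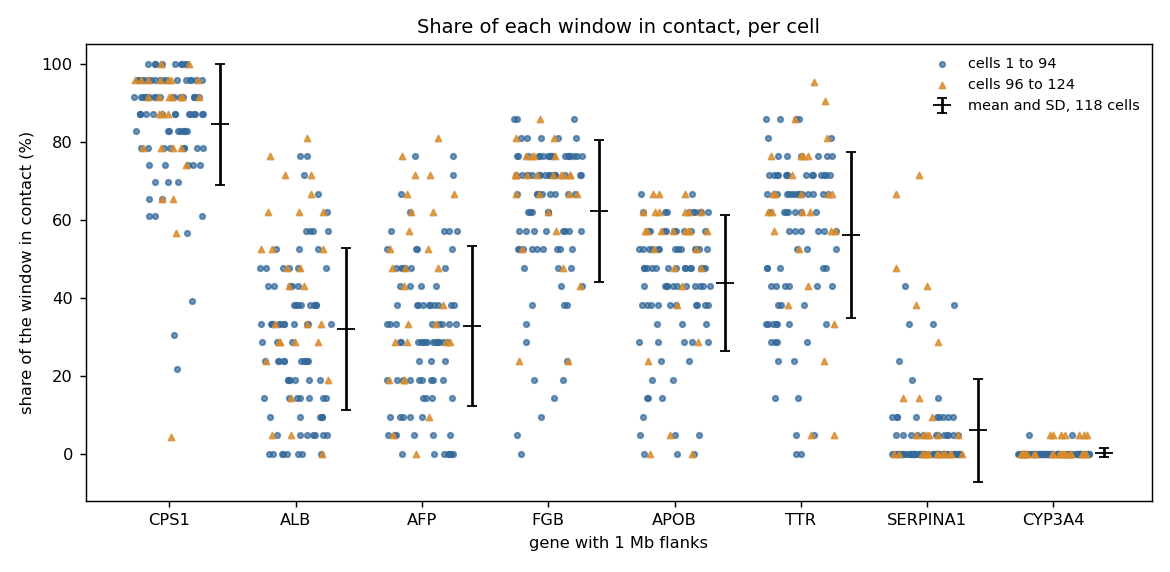
Share of each gene's window in contact (%, y axis) in each of 118 cells, for the 8 genes with 1 Mb flanks (x axis). Cells 1 to 94 are circles, cells 96 to 124 are triangles, and bars give the mean and SD. CPS1 cells lie mostly above 50%, ALB and AFP cells spread from 0 to 81.0%, APOB cells from 0 to 66.7%, and CYP3A4 cells lie at 0 or 4.76%.

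The windows ranked as the gene bins did at both ends, but not between them. Per cell, 62.3% ± 18.2 of the FGB window was in contact, 56.1% ± 21.2 of the TTR window, 43.8% ± 17.5 of the APOB window, 32.8% ± 20.5 of the AFP window, 32.0% ± 20.7 of the ALB window, 6.01% ± 13.1 of the SERPINA1 window and 0.363% ± 1.27 of the CYP3A4 window (SD, n = 118). ALB thus had a higher frequency than TTR at the gene and a lower mean share over its window, while the bins of ALB and FGB did not differ beyond the counting of cells (32 against 22 cells, 59.3%, 45.0 to 72.4%). The ALB window had a mean close to the median of all windows, 32.0%, and 9 cells had no contact in it. The FGB window exceeded the contact share of the same cell in 110 of 118 cells, the TTR window in 107, the APOB window in 97, the ALB and AFP windows in 52 each, the SERPINA1 window in 5 and the CYP3A4 window in none. Means were higher in the second set than in the first for ALB (41.8 against 28.9%), AFP (42.7 against 29.7%), APOB (48.8 against 42.2%), FGB (65.8 against 61.2%), TTR (60.0 against 54.9%), SERPINA1 (12.9 against 3.86%) and CYP3A4 (1.19 against 0.106%), and close for CPS1 (83.9 against 84.5%). Over all bins the contact share was 31.9% ± 5.53 in the first set and 36.5% ± 3.44 in the second, and the part of depth and background in these differences was not tested.

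Ordered by frequency over all 118 cells, CPS1 was followed by ALB, AFP, FGB, APOB, TTR, SERPINA1 and CYP3A4. The second set alone, with 28 cells, had another order, with APOB at 71.4%, AFP and FGB at 60.7% each and ALB at 53.6%. The exact intervals of APOB (51.3 to 86.8%) and ALB (33.9 to 72.5%) overlap there, and the order within this set was not tested. Cells that differed between a gene and the next one in the order of all 118 cells were counted to see which neighbours were apart. The same contacts gave the order and these counts. The first CPS1 bin alone was in contact in 35 cells and ALB alone in 17 (67.3%, exact interval 52.9 to 79.7%). ALB and AFP, AFP and FGB (28 against 23 cells, 54.9%, 40.3 to 68.9%) and FGB and APOB (28 against 24 cells, 53.8%, 39.5 to 67.8%) did not differ beyond the counting of cells, nor did ALB and APOB, farther apart in the order (36 against 22 cells, 62.1%, 48.4 to 74.5%). APOB and TTR differed, with 43 against 16 cells (72.9%, 59.7 to 83.6%), as did TTR and SERPINA1, with 25 against 4 cells (86.2%, 68.3 to 96.1%). SERPINA1 alone was in contact in 8 cells and CYP3A4 alone in 0 (100%, exact interval 63.1 to 100%). The only contact of CYP3A4 was in cell 119 of the second set, in which all 8 genes had a contact.

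**Figure D4:**
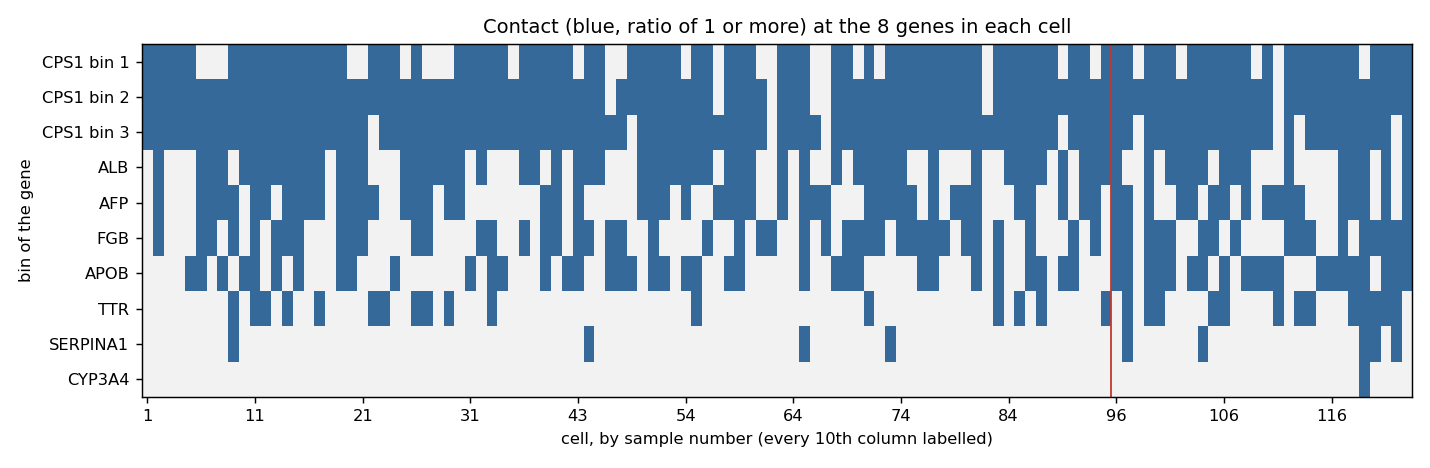
Contact (blue, ratio of 1 or more) or no contact (grey) at the 10 gene bins (rows) in each of 118 cells (columns, by sample number), with a red line between cells 94 and 96. The CPS1 rows are nearly filled, the rows of ALB, AFP, FGB and APOB are mixed with different cells filled in each, and the CYP3A4 row has 1 filled cell.

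Single cells combined these contacts in many ways. Counting CPS1 as in contact if any of its 3 bins was, a cell had 3.47 ± 1.39 of the 8 genes in contact (SD, n = 118), from 1 gene in 10 cells to all 8 in cell 119. No cell had none. The most common number was 4, in 33 cells, and there were 39 different combinations, of which the most common, CPS1 with ALB, AFP, FGB and APOB, was seen in 13 cells. The first set had a mean of 3.28 ± 1.30 and the second 4.11 ± 1.5. It went with the contact share of the cell with r = 0.417 and with recovered reads with r = 0.327, as a description over 118 cells of 1 clone.

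Correlations between genes far apart were low over all 118 cells and varied between the sets. With each cell's contact share regressed out, the 17 pairs on different chromosomes, CYP3A4 left out because of its single contact, had correlations over cells from -0.119 to 0.190 with a median of -0.00924. ALB with FGB had 0.0328, AFP with FGB 0.123 and APOB with CPS1 0.0195, although each of these pairs lies on 1 chromosome. The highest among pairs on different chromosomes was FGB with SERPINA1, whereas ALB with AFP had 0.426 at the distance of 1 bin. Within the sets, contact share not removed, FGB with SERPINA1 had 0.113 in the first and 0.375 in the second, and ALB with CPS1 had 0.191 and 0.335. SERPINA1 with TTR had 0.0337 and 0.314, FGB with CPS1 -0.0605 and 0.313, FGB with TTR -0.0177 and 0.309, and ALB with TTR 0.0833 and -0.282. These pairs were listed for having the largest values of either sign in the second set, among pairs on different chromosomes without CYP3A4. The second set has only 28 cells, and SERPINA1 was in contact in 4 cells of the first set and 5 of the second. ALB with AFP had 0.438 and 0.424. All bins of a cell share its library and depth, contacts are counted as present or absent, and weak values of this kind are given as a description with no test.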

How the data were processed

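The deposited table gives, for each 100 kb bin and cell, the ratio of reads observed to reads expected. The sources used here do not say how the expected part was made. Per the submitters' processing notes, cutadapt, Bowtie2 2.1.0 and the build hg19 were used. Profiles of unfused Dam were not used, so contact and accessibility cannot be told apart. A usable bin had no missing value in any cell and was above 0 somewhere. Samples numbered 33, 34, 44, 86, 95 and 120 have no column in the table and were not analysed here. Whole reads were recovered from the steps of the ratios, and 100% of 1697706 values above 0 came out whole to a tolerance of 0.02 reads. There are no molecular identifiers, so intervals cover the counting of cells only.

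Contact was a ratio of 1 or more. The Poisson-binomial test convolved the contact shares of the cells, at a threshold of 0.05 on the adjusted p, and was tested on simulated data first. Exact intervals are Clopper-Pearson at 95%. All 8 genes are named, and other genes only as neighbours in RefSeq's order on GRCh38.p14, with no value of their own. Windows of all genes were slid over every stretch of consecutive usable bins. Python 3.11.15, numpy 2.4.6, scipy 1.17.1 and pandas 2.3.3 were used. The members and gene list were chosen with earlier results of these data known. Alternatives were the contact value, thinning to 50000 reads, leaving out cells with under 3 reads behind a ratio of 1, each set of sample numbers alone, the chromosome's own contact shares as reference, and flanks of 0.5 and 2 Mb.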

Additional observations from a re-analysis of the deposited data

How the results depend on the processing

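Of 148 values of 20 results under 9 alternatives, 127 counted as unchanged. For a gene bin this meant the same direction and side of the threshold, and for a window share a move of less than 1 SD between cells. The numbers of member bins called above or below stayed within 1.5 times under all 7 alternatives run on them, which also counted as unchanged. An SD between cells is wider than the error of a mean over 118 cells, so large moves could count as unchanged. At a contact value of 0.5, for example, the ALB window went from 32.0 to 48.6% and the SERPINA1 window from 6.01 to 13.4%. The cause of the following changes was not tested. At a contact value of 2, frequencies and adjusted p of the exact Poisson-binomial test were 26.3% (0.0642) at ALB, 22.9% (0.329) at AFP, 17.8% (0.893) at FGB and 15.3% (0.4) at APOB, the last 2 on the lower side, and 4.24% (7.39e-06) at TTR. Shares of windows became 11.1% for ALB, 11.9% for AFP, 40.1% for FGB, 58.2% for CPS1 and 31.4% for TTR. At a contact value of 0.5, TTR was at 45.8% on the upper side and the CYP3A4 window at 1.90%. Cells 1 to 94 alone gave 41.1% at APOB, not called, and 18.9% at TTR, called below. Cells 96 to 124 alone, 28 in number, gave 53.6% at ALB and 17.9% at SERPINA1, neither called, and 46.4% at TTR on the upper side. With each chromosome's own shares as reference, FGB at 51.7% was not called and TTR at 25.4% was called below. Flanks of 2 Mb gave 40.7% for the FGB window and 3.20% for the CYP3A4 window. Thinning to 50000 reads, which left out 9 cells, and leaving out 14 shallow cells changed no call of a gene bin. The number of cells limits rare contacts, since contact in 0 of 118 cells leaves room for 2.54% by the rule of 3 counts and 3.08% by the exact interval. With thinned reads the CYP3A4 bin was at 2.75% and the SERPINA1 bin at 9.17%.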

Other observations

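Contact in the window of SERPINA1 came from few cells. It held 149 contacts, 76 of them in the 28 cells numbered 96 to 124 and 73 in the 90 cells numbered 1 to 94. Besides cells 97 and 119, cell 104 had 47.6% of the window in contact, cells 77 and 96 had 42.9% and cells 71 and 101 had 38.1%, whereas the median over 118 cells was 0. Cell 119, in which all 8 genes had a contact, belongs to the cells numbered 96 to 124, which had the higher signal in rarely contacted bins. It had 135954 recovered reads and a contact share of 36.7%, which is within the range of the other cells, 18.3 to 42.3%. In the same cell 91.3% of the CPS1 window, 76.2% of the TTR window and 61.9% of the ALB window were in contact. The 3 cells with the least contact in the CPS1 window after cell 111 were cell 62 with 21.7%, cell 67 with 30.4% and cell 47 with 39.1%.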
